A study of Rattus norvegicus with 6 samples.

Results

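The genes described here are 45 genes of the mitotic cell cycle, a named list of cyclins, mitotic kinases, kinetochore and spindle proteins, and regulators of anaphase and cytokinesis. A probe was taken as theirs when its accession belonged to one of the listed symbols, whatever its value. This gave 71 probes for 38 of the 45 genes, out of 61657 probes and 15284 named genes on the array. Cdc25c, Bub1b, Melk, Cenpe, Kif4a, Ect2 and Anln had no matched probe and were not analysed here. The 3 anthraquinone rats were male Sprague-Dawley (Crl:CD(SD)) animals dosed with anthraquinone, a tricyclic aromatic diketone, at 1000 mg/kg/day for 4 weeks. The 3 corn oil rats were of the same strain and sex and were given the corn oil vehicle for the same 4 weeks. Both groups were 5 weeks old at purchase and were kept on the same basal diet. RNA of the renal cortex of each animal was labelled with Cy3 and hybridised to an Agilent array of its own, and the study asked which genes differ in expression between the groups.

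Cells enter mitosis when cyclin B and CDK1 form an active kinase, which CDC25 phosphatases switch on and which PLK1 and the Aurora kinases support. Condensed chromosomes then attach through kinetochores to spindle microtubules, and the anaphase-promoting complex, a ubiquitin ligase, releases the sister chromatids once the spindle checkpoint is satisfied. Transcripts of these genes accumulate in late G2 and mitosis, under FOXM1, B-MYB and the MuvB complex, and are scarce in the largely quiescent tubules of adult kidney. In a tissue sample, fewer cycling cells and less of a transcript per cycling cell cannot be told apart.

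Promoters are shown because late cell cycle genes share short elements there: TTTGAA or TTTAAA, known as the CHR and bound by MuvB, and CCAAT, the box bound by NF-Y. RefSeq promoter windows (assembly GRCr8, 250 bases before to 50 bases after each gene's start) were matched to 36 of the 45 genes. TTTGAA or TTTAAA, on either strand, was in 31 of the 36 windows (86.1%), against 28.3% of all 33469 promoters. CCAAT was in 26 windows (72.2%) against 37.5% of all promoters, and 20 windows held 2 or more copies (55.6% against 11.2%). A window held both kinds of element in 23 genes (63.9% against 11.3%). The E2F patterns GGCGG or GCGGGAA were in 32 windows (88.9% against 47.3%). TTTAAA reads the same on both strands, and each pattern was searched for on its own, whether or not it overlapped another. A match describes letters and is no evidence of binding.

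The 150 bases before the start of 7 genes are printed 5′ to 3′ on each gene's own strand, with the CCAAT box and the CHR in capitals (ATTGG is the box and TTCAAA the CHR on the opposite strand). Ccnb2 (chr8:79981659-79981808, minus strand), Ccnb1 (chr2:33655226-33655375, minus), Cdk1 (chr20:19265143-19265292, plus), Prc1 (chr1:143659331-143659480, plus) and Pttg1 (chr10:28406327-28406476, minus) stand for probes with positive differences described further on. Cdc20 (chr5:137255800-137255949, minus) and Aurka (chr3:181560770-181560919, minus) stand for genes whose differences were near 0. These 7 were picked after their values were known.
Ccnb2: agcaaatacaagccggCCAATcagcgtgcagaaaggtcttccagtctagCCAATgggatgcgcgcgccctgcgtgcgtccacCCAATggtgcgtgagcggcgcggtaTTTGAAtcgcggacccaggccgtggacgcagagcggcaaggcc
Ccnb1: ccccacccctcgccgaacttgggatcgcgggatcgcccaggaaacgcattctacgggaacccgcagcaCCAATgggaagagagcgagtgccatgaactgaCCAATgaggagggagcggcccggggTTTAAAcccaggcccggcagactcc
Cdk1: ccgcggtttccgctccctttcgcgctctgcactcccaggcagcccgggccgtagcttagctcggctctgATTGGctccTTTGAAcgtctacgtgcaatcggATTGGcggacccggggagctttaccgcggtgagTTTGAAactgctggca
Prc1: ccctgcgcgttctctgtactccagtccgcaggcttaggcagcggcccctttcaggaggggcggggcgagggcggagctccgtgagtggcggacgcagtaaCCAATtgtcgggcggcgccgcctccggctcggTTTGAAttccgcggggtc
Pttg1: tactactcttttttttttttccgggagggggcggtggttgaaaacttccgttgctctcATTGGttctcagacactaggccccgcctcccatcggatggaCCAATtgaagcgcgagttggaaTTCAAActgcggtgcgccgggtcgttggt
Cdc20: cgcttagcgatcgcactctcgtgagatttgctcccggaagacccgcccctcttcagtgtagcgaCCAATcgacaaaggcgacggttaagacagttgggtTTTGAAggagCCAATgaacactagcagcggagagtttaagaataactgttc
Aurka: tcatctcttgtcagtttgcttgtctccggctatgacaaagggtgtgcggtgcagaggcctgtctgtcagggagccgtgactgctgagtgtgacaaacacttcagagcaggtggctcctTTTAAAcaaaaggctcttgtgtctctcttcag

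The Cdc20 sequence holds a TTTGAA 51 bases before the start between CCAAT boxes at 86 and 41 bases. In the Ccnb2 sequence, boxes at 134, 101 and 68 bases precede a TTTGAA at 43. Aurka has a TTTAAA at 32 bases and no CCAAT within the 150 bases printed. Among genes with a probe at an unadjusted p under 0.05, 12 of 14 windows held TTTGAA or TTTAAA, against 11 of 13 windows of the other tested genes. No test was run on these counts.

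Levels are given as log2 of the background-corrected intensity relative to the array's 75th percentile, so a level of 0 is the intensity that 75% of probes do not exceed, and levels of different probes are not compared. Where values of 3 arrays are listed, they stand in the order of replicates 1, 2 and 3. That percentile was 880, 866 and 844 intensity units in anthraquinone and 1190, 903 and 956 in corn oil. Between 64.2 and 66.1% of probes were well above background in anthraquinone and between 68.7 and 70.7% in corn oil. Of the 71 mitotic probes 57, 55 and 58 were well above background in anthraquinone against 63, 63 and 62 in corn oil. The lowest level called above background was -5.49 to -5.24 in anthraquinone and -6.03 to -5.81 in corn oil, so a dim probe had to be brighter to be detected in an anthraquinone array. All 9 proximal tubule marker genes were above background on all 6 arrays, with summed intensities of 2140 to 2450 times the 75th percentile in anthraquinone and 2070 to 2240 in corn oil. Of the liver markers, Ttr was above background on no array. Alb was above background on 1 anthraquinone and 1 corn oil array on probe A_44_P1017367. Its probe A_44_P468107 was above background on 1 corn oil array and A_44_P468103 on no array. Apoa1 was above background on 1 anthraquinone and 3 corn oil arrays, with -5.38, -4.86 and -6.48 in anthraquinone against -1.71, -5.65 and -5.23 in corn oil, so corn oil replicate 1 stood far above the rest. Of the muscle markers, Myh1 was above background on no array, while Acta1 and 1 of 2 Ckm probes were above background on all 6 arrays, with overlapping groups. Corn oil replicate 1 was alone on its slide and had another scan date than the other arrays. Corn oil replicates 2 and 3 lay in another row of the slide that held all anthraquinone arrays. No corn oil array shared both slide and row with an anthraquinone array, so group and position cannot be told apart.

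Testing required that every array of anthraquinone, or every array of corn oil, call the probe well above background. This held for 60 mitotic probes of 35 genes, 55 of them on all 6 arrays. The other 5 were tested through the corn oil arrays alone, and 0 through anthraquinone alone. Aurkb, the catalytic kinase of the chromosomal passenger complex, Cenpa, the centromeric histone H3 variant, and Hmmr, a hyaluronan and spindle binding protein, each had 1 probe, and none of the 3 was tested. Those probes were above background on no anthraquinone array and on 2, 1 and 1 corn oil arrays. A further probe each of Ccne1, Bub1, Ttk, Cenpf and Kif2c was above background on no array, and 1 probe each of Ccne2, Ccna2 and Kif11 was above background on 1 or 2 corn oil arrays and no anthraquinone array.

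The tested mitotic probes lay mostly, by small amounts, at higher levels in anthraquinone than in corn oil, and no single probe passed the test over the whole array. Differences are anthraquinone minus corn oil on the log2 scale, fitted with limma and adjusted by the Benjamini-Hochberg method over 41310 tested probes. At an adjusted p under 0.05, 0 of 60 mitotic probes were called, where 14 of all probes were called (0.0339%). That count over all probes was 1 when anthraquinone replicate 1 or 2 was left out. Leaving out corn oil replicate 1 gave 2, replicate 2 gave 7 and replicate 3 gave 35. At an unadjusted p under 0.05, limma gave 17 mitotic probes of 15 genes at higher levels in anthraquinone (28.3% of 60, against 9.22% of all probes) and 0 at lower levels (against 8.15%). The arrays of the groups did not overlap, with anthraquinone higher, in 21 mitotic probes (35.0%), where 14.5% of all probes did so, and with anthraquinone lower in 0, where 10.7% did. A positive difference was found in 48 of 60 probes (80.0%, against 50.8% of all probes). The median difference was 0.21, with a range of -0.25 to 0.67, and the median of all tested probes was 0.00.

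The 17 probes had differences of 0.22 to 0.66, or 1.16-fold to 1.58-fold, with adjusted p from 0.0919 to 0.276, and in each of them the 3 anthraquinone arrays lay above the 3 corn oil arrays. The 12 probes with a negative difference, of 9 genes, reached from -0.25 to -0.01, and the groups overlapped in all 12. Over the probes above background on all 6 arrays the counts were 17 of 55 mitotic probes at higher levels (30.9%) against 9.85% of all such probes, with medians of 0.22 and 0.01.

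**Figure D1:**
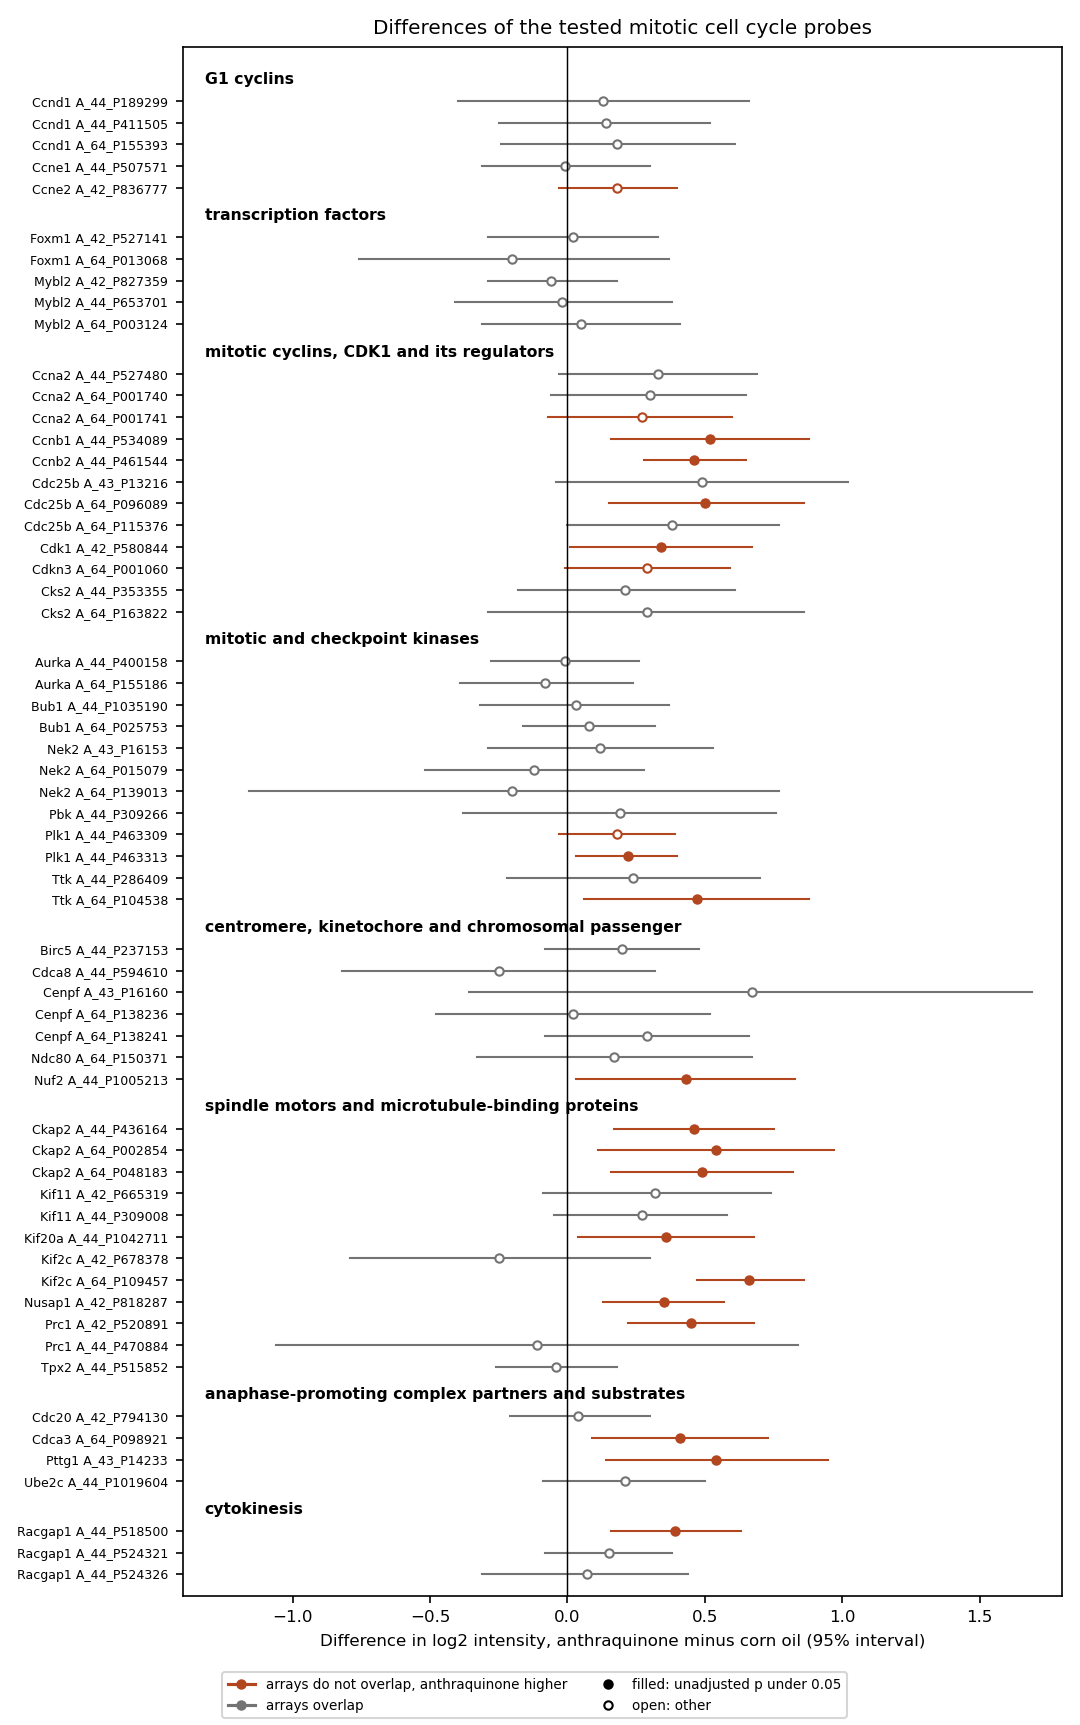
Difference in log2 intensity (anthraquinone minus corn oil) with its 95% interval for each of the 60 tested mitotic probes, grouped by role, with 3 arrays per group. Filled points have an unadjusted limma p under 0.05 and red marks probes whose arrays do not overlap; the filled points run from 0.22 to 0.66, most of them among the mitotic cyclins and CDK1 regulators and the spindle proteins.

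The arrays did not contribute evenly to this. The median deviation of the 60 probes from each probe's mean over the 6 arrays was 0.27, -0.03 and 0.12 in anthraquinone replicates 1, 2 and 3, against -0.08, -0.05 and -0.21 in corn oil replicates 1, 2 and 3, while the same median over all probes lay between -0.02 and 0.01 on every array. The level was highest of the 6 arrays in anthraquinone replicate 1 for 38 of 60 mitotic probes, against 12.5% of all probes, and lowest in corn oil replicate 3 for 32 of 60, against 17.9% of all probes. With those 2 arrays left out together, a choice made after seeing the data, the median difference was 0.11. In that setting 9 of 61 probes had an unadjusted limma p under 0.05, all 9 at higher levels in anthraquinone. The share of all probes past that threshold is not given for this setting or for the slide and row settings below. Anthraquinone replicate 2, with a median of -0.03, stood close to corn oil replicates 1 and 2. Within the slide that held both groups the median difference was 0.26, with 15 probes at an unadjusted p under 0.05. On that slide each group had a row of its own. With the row on the slide as a block, which leaves corn oil replicate 1 as the comparison within the row, the median was 0.15, with 9 probes at higher and 1 at lower levels.

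**Figure D2:**
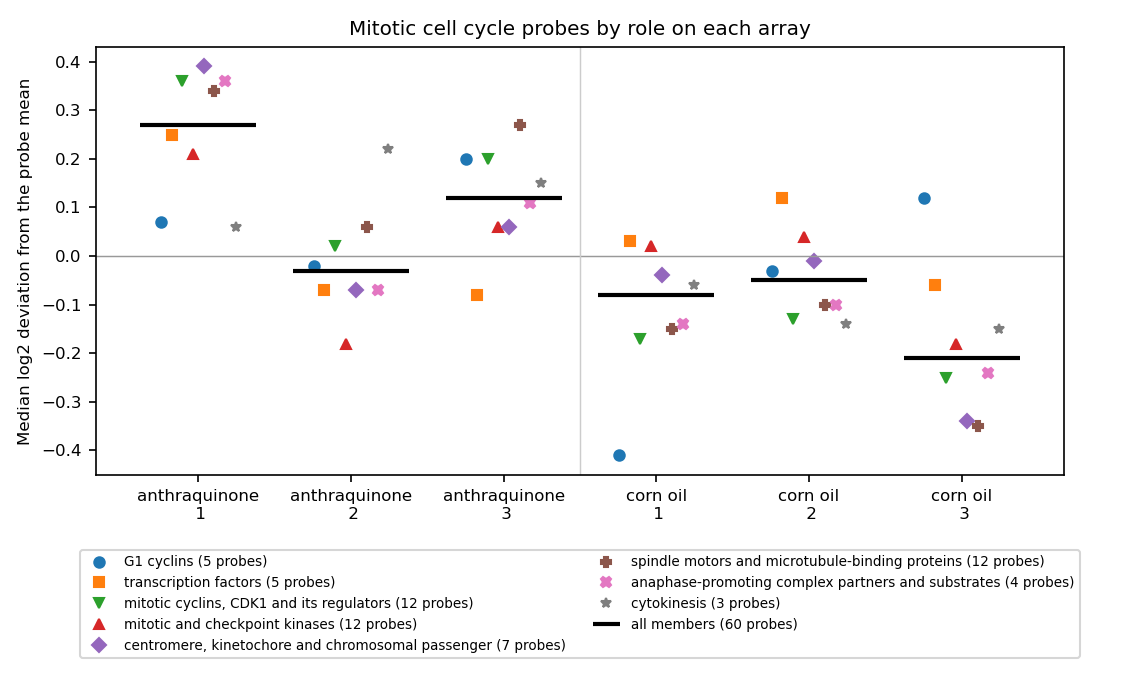
Median log2 deviation from the probe mean on each array (y axis) for the 8 role groups (symbols) and for all 60 tested probes (black bar), with anthraquinone arrays left of corn oil arrays. The black bar lies at 0.27 in anthraquinone replicate 1 and at -0.21 in corn oil replicate 3, with the other 4 arrays between -0.08 and 0.12.

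Among the G1 cyclins, which act before mitosis, no probe had an unadjusted p under 0.05 and the median difference over 5 probes was 0.14. Ccnd1, the D-type cyclin that links growth signals to CDK4 and CDK6, had levels of 2.92, 2.64 and 3.07 in anthraquinone and 2.31, 2.84 and 3.08 in corn oil on probe A_44_P189299. The groups overlapped, with a difference of 0.13 ± 0.22 (SE, n = 3 per group; limma adjusted p = 0.791). Its other two probes gave 0.14 ± 0.16 (A_44_P411505: 2.39, 2.38 and 2.58 in anthraquinone; 1.97, 2.47 and 2.5 in corn oil) and 0.18 ± 0.18 (A_64_P155393: 1.20, 1.03 and 1.44 in anthraquinone; 0.72, 1.1 and 1.29 in corn oil). On each of the 3 probes corn oil replicate 1 was the lowest array. Without it the differences were -0.08, -0.03 and 0.03, and with the row on the slide as a block they were 0.56, 0.48 and 0.50. Ccne1, a cyclin of S phase entry, had levels of -3.42, -3.44 and -3.40 in anthraquinone, all inside the corn oil values of -3.14, -3.58 and -3.52 on A_44_P507571, with a difference of -0.01 ± 0.13 (SE). The related cyclin Ccne2 gave 0.18 ± 0.09 (SE) on its tested probe, whose groups did not overlap (limma adjusted p = 0.35).

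The transcription factors that activate late cell cycle genes had differences near 0, with 0 of 5 probes at an unadjusted p under 0.05. Foxm1 had levels of -1.06, -1.39 and -1.48 in anthraquinone against -1.29, -1.44 and -1.27 in corn oil on A_42_P527141, a difference of 0.02 ± 0.13 (SE; limma adjusted p = 0.951). Its second probe, A_64_P013068, gave -4.21, -4.94 and -4.55 in anthraquinone and -4.58, -4.0 and -4.53 in corn oil, a difference of -0.20 ± 0.23 (SE). Both probes overlapped between groups, and the 95% interval of the first reached from -0.29 to 0.33. Mybl2, which encodes B-MYB, the MYB protein that joins MuvB, gave -3.31, -3.15 and -3.12 in anthraquinone and -3.09, -2.92 and -3.52 in corn oil on A_44_P653701 (-0.02 ± 0.16, SE). Its other two probes lay at the edge of detection in anthraquinone, where A_42_P827359 was above background on 1 array (-5.22, -5.24 and -5.03 in anthraquinone; -5.22, -5.02 and -5.08 in corn oil; -0.06 ± 0.10). A_64_P003124 was well above background on no anthraquinone array (-5.06, -5.39 and -5.51, against -5.17, -5.49 and -5.44 in corn oil; measured difference 0.05 ± 0.15). The median over the 5 probes of this group was -0.02.

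The mitotic cyclins, CDK1 and its regulators lay higher in anthraquinone on all 12 tested probes, by 0.21 to 0.52 with a median of 0.34. Of these, 4 had an unadjusted p under 0.05 (33.3%, against 9.22% of all probes at higher levels). The groups did not overlap in 6 (50%, against 14.5% of all probes). Ccnb2, a B-type cyclin, had levels of -2.36, -2.51 and -2.38 in anthraquinone against -2.84, -2.92 and -2.88 in corn oil (A_44_P461544). The gap between the groups was wider than the spread within either, and the difference was 0.46 ± 0.08 (SE, n = 3 per group; limma adjusted p = 0.133), 1.38-fold. Ccnb1, the cyclin that drives mitotic entry with CDK1, had levels of -2.09, -2.66 and -2.42 in anthraquinone against -2.89, -2.92 and -2.92 in corn oil (A_44_P534089). Here the anthraquinone animals varied (SD 0.29) where the corn oil animals hardly did (SD 0.02), and the difference was 0.52 ± 0.15 (SE; limma adjusted p = 0.206).

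Cdk1, the mitotic kinase itself, had levels of 1.06, 0.75 and 0.83 in anthraquinone against 0.54, 0.74 and 0.34 in corn oil (A_42_P580844). Anthraquinone replicate 2 and corn oil replicate 2 nearly met, and the difference was 0.34 ± 0.13 (SE; limma adjusted p = 0.276). It was 0.15 when anthraquinone replicate 1 and corn oil replicate 3 were left out together. Cdc25b, a phosphatase that removes inhibitory phosphates from CDK1, had levels of 0.15, -0.26 and -0.27 in anthraquinone against -0.74, -0.71 and -0.45 in corn oil (A_64_P096089), a difference of 0.50 ± 0.15 (SE; limma adjusted p = 0.207). Its other two probes gave 0.49 ± 0.22 and 0.38 ± 0.16 with overlapping groups, so the 3 probes of Cdc25b differed by less than their errors. The 3 tested probes of Ccna2, the cyclin of S and G2 phase, gave 0.33, 0.30 and 0.27, of which the third did not overlap between groups. Cdkn3, a phosphatase that acts on CDKs, gave 0.29 ± 0.12 (SE; limma adjusted p = 0.304) without overlap, and the probes of Cks2, a small CDK-binding subunit, gave 0.21 and 0.29 with overlap.

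**Figure D3:**
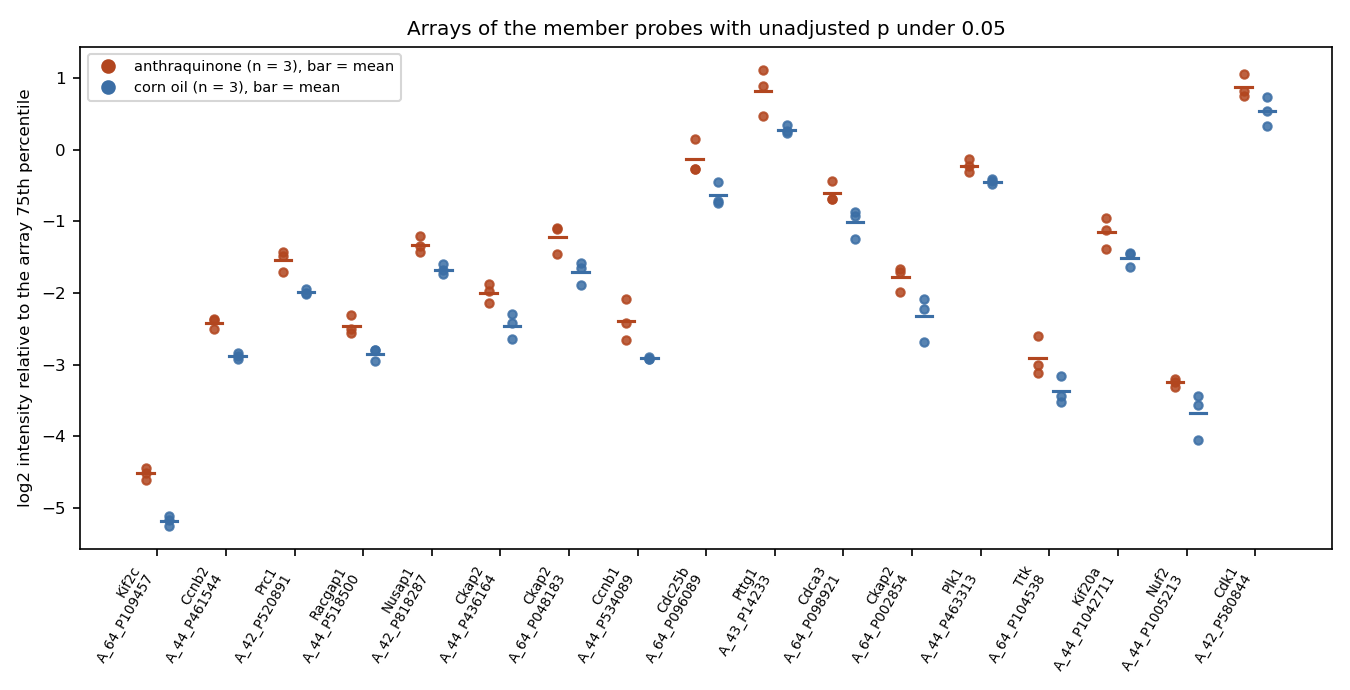
Levels on each array (log2 intensity relative to the array's 75th percentile, y axis) of the 17 mitotic probes with an unadjusted p under 0.05, in order of p, with anthraquinone left of corn oil for each probe and bars at the group means (n = 3 each). In each probe the 3 anthraquinone points lie above the 3 corn oil points, closest for Cdk1 (0.75 in anthraquinone, 0.74 in corn oil).

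The mitotic and checkpoint kinases were mixed, with 8 of 12 probes positive and a median of 0.10. At an unadjusted p under 0.05, limma gave 2 at higher levels (16.7%, against 9.22% of all probes). Plk1, which promotes mitotic entry and spindle assembly, had levels of -0.13, -0.31 and -0.23 in anthraquinone against -0.41, -0.48 and -0.44 in corn oil on A_44_P463313 (0.22 ± 0.08, SE; limma adjusted p = 0.246). A second Plk1 probe, A_44_P463309, had levels of -1.61, -1.74 and -1.72 in anthraquinone against -1.83, -1.79 and -1.99 in corn oil (0.18 ± 0.09, SE; limma adjusted p = 0.343). Neither probe overlapped between groups, and their differences were alike within their errors. Ttk, the MPS1 kinase of the spindle checkpoint, gave 0.47 ± 0.17 (SE; limma adjusted p = 0.247) without overlap on A_64_P104538 and 0.24 ± 0.19 with overlap on A_44_P286409.

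Aurka, the kinase of centrosome maturation and spindle poles, had levels of -0.60, -0.99 and -0.95 in anthraquinone and -0.76, -0.66 and -0.90 in corn oil on A_64_P155186 (-0.08 ± 0.13, SE; limma adjusted p = 0.8). On A_44_P400158 it had -2.45, -2.83 and -2.70 in anthraquinone and -2.59, -2.69 and -2.67 in corn oil (-0.01 ± 0.11, SE). Anthraquinone replicate 1 was the highest array on both Aurka probes, and the other two anthraquinone arrays lay lowest. The probes of Bub1, a checkpoint kinase at kinetochores, gave 0.03 and 0.08, and Pbk, a kinase active in mitosis, gave 0.19, each with overlapping groups. Nek2, the kinase that separates centrosomes, gave 0.12, -0.12 and -0.20 on 3 dim probes. A_64_P015079 had levels of -4.82, -5.05 and -4.47 in anthraquinone and -4.61, -4.54 and -4.83 in corn oil, and A_64_P139013 had -4.70, -4.79 and -4.53 in anthraquinone and -4.81, -3.53 and -5.09 in corn oil. The corn oil arrays of the last probe spanned more than the groups differed (SD 0.83).

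The centromere, kinetochore and chromosomal passenger genes had a median of 0.20 over 7 tested probes. At an unadjusted p under 0.05, limma gave 1 of the 7 at a higher level (14.3%, against 9.22% of all probes). That probe belonged to Nuf2, a subunit of the microtubule-binding NDC80 complex (0.43 ± 0.16, SE; limma adjusted p = 0.262), and Ndc80 itself gave 0.17 ± 0.21 (SE) with overlap. Birc5, which encodes survivin, a chromosomal passenger protein, had levels of -0.25, -0.56 and -0.47 in anthraquinone against -0.57, -0.54 and -0.79 in corn oil (A_44_P237153). The groups overlapped by 1 array, and the difference was 0.20 ± 0.12 (SE; limma adjusted p = 0.407). It was 0.12 without anthraquinone replicate 1, 0.13 without corn oil replicate 3 and 0.04 without both. Cdca8, which encodes borealin of the same complex, had levels of -5.06, -4.93 and -5.19 in anthraquinone and -4.79, -4.35 and -5.30 in corn oil, near the detection edge (A_44_P594610; -0.25 ± 0.24, SE). Leaving out corn oil replicate 2 gave -0.02, leaving out corn oil replicate 3 gave -0.49, and the normexp correction gave 0.00. Cenpf, a large kinetochore protein, gave 0.67 ± 0.42, 0.29 ± 0.15 and 0.02 ± 0.21 (SE) on 3 dim probes that all overlapped between groups.

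The spindle motors and microtubule-binding proteins held 7 of the 17 probes with an unadjusted p under 0.05, out of 12 tested, with a median of 0.36. These 7 were 58.3% of the 12, against 9.22% of all probes at higher levels. Kif2c, the kinesin MCAK, which takes microtubules apart at their ends, had levels of -4.44, -4.61 and -4.52 in anthraquinone against -5.12, -5.18 and -5.26 in corn oil on A_64_P109457. This probe had the smallest p among the mitotic probes, with tight groups and a difference of 0.66 ± 0.08 (SE, n = 3 per group; limma adjusted p = 0.0919). It was dim, and with the normexp background correction its difference was 0.30 (limma adjusted p = 0.297). A probe to another Kif2c accession, A_42_P678378, had levels of -5.18, -5.78 and -5.95 in anthraquinone and -5.64, -5.21 and -5.31 in corn oil, and was well above background in the 3 corn oil arrays but in no anthraquinone array. In anthraquinone its level has only an upper bound, and the measured difference was -0.25 ± 0.22 (SE), opposite in sign, so the 2 tested probes did not settle the level of Kif2c. Median differences at such levels were below 0 over all tested probes: -0.26 for those between -6 and -5 and -0.08 for those between -5 and -4.

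Prc1, which bundles antiparallel microtubules in the anaphase midzone, had levels of -1.43, -1.71 and -1.48 in anthraquinone against -1.94, -2.0 and -2.02 in corn oil on A_42_P520891 (0.45 ± 0.10, SE; limma adjusted p = 0.177). Its dimmer probe A_44_P470884 had -4.32, -5.84 and -4.52 in anthraquinone and -4.66, -4.82 and -4.88 in corn oil (-0.11 ± 0.39, SE). Anthraquinone replicate 2, the one array on which that probe was not well above background, was the lowest by far, and without it the difference was 0.36. Ckap2, a microtubule-stabilising spindle protein, was measured by 3 probes that were alike. A_44_P436164 had levels of -1.88, -2.14 and -1.97 in anthraquinone against -2.42, -2.30 and -2.65 in corn oil (0.46 ± 0.12, SE; limma adjusted p = 0.193). A_64_P048183 had -1.09, -1.45 and -1.11 in anthraquinone against -1.65, -1.58 and -1.89 in corn oil (0.49 ± 0.14), and A_64_P002854 had -1.66, -1.98 and -1.71 in anthraquinone against -2.22, -2.08 and -2.68 in corn oil (0.54 ± 0.18). On each of the 3 Ckap2 probes every anthraquinone array lay above every corn oil array, with anthraquinone replicate 2 and corn oil replicate 2 nearest to each other.

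Nusap1, which anchors microtubules to chromosomes, had levels of -1.43, -1.34 and -1.20 in anthraquinone against -1.68, -1.60 and -1.74 in corn oil (A_42_P818287; 0.35 ± 0.09, SE; limma adjusted p = 0.189). Here anthraquinone replicate 1 was the lowest of the 3 anthraquinone arrays. Kif20a, a kinesin of the central spindle, gave 0.36 ± 0.13 (SE; limma adjusted p = 0.254) without overlap. Kif11, the motor that pushes spindle poles apart, gave 0.32 and 0.27 on 2 probes with overlap. Tpx2, which activates Aurora A on the spindle, had levels of -3.17, -3.39 and -3.40 in anthraquinone and -3.25, -3.35 and -3.24 in corn oil, a difference of -0.04 ± 0.09 (SE; A_44_P515852).

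Of the partners and substrates of the anaphase-promoting complex, all 4 probes were positive. At an unadjusted p under 0.05, limma gave 2 of the 4 at higher levels (50%, against 9.22% of all probes). Pttg1, which encodes securin, the inhibitor of separase, had levels of 1.12, 0.47 and 0.89 in anthraquinone against 0.27, 0.35 and 0.23 in corn oil (A_43_P14233; 0.54 ± 0.17, SE; limma adjusted p = 0.214). Cdca3, a protein of mitotic entry that the complex degrades, had levels of -0.43, -0.69 and -0.69 in anthraquinone against -0.92, -0.87 and -1.24 in corn oil (A_64_P098921; 0.41 ± 0.13, SE; limma adjusted p = 0.225). In both, the groups did not overlap. Cdc20, the activator of the complex in mitosis, gave 0.04 ± 0.10 (SE; limma adjusted p = 0.859), and Ube2c, its ubiquitin-conjugating enzyme, gave 0.21 ± 0.12 (SE), both with overlap. The one cytokinesis gene tested was Racgap1, a subunit of centralspindlin. Its probe A_44_P518500 had levels of -2.56, -2.31 and -2.50 in anthraquinone against -2.95, -2.80 and -2.80 in corn oil (0.39 ± 0.10, SE; limma adjusted p = 0.187). The other two Racgap1 probes overlapped between groups and gave 0.15 ± 0.09 and 0.07 ± 0.15 (SE).

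Several genes had more than 1 tested probe, 17 in all, and in 5 of them (Foxm1, Mybl2, Nek2, Kif2c and Prc1) the probes differed in sign. In Kif2c and Prc1 a probe with an unadjusted p under 0.05 stood beside one of opposite sign that was not above background on all anthraquinone arrays. By level, the median difference of the mitotic probes was 0.00 over 4 probes at levels of -6 to -5 and -0.05 over 10 probes at -5 to -4. It was 0.13 over 8 probes at -4 to -3, 0.33 over 15 probes at -3 to -2 and 0.30 over 9 probes at -2 to -1. The 7 probes at -1 to 0 had 0.22, the 3 at 0 to 1 had 0.34 and the 4 above 1 had 0.16. The medians of all tested probes at levels from -6 to -1 lay between -0.26 and -0.01, and the 22 tested probes below -6, none of them mitotic, had a median of -1.16. The part of signal level in the differences was not tested.

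**Figure D4:**
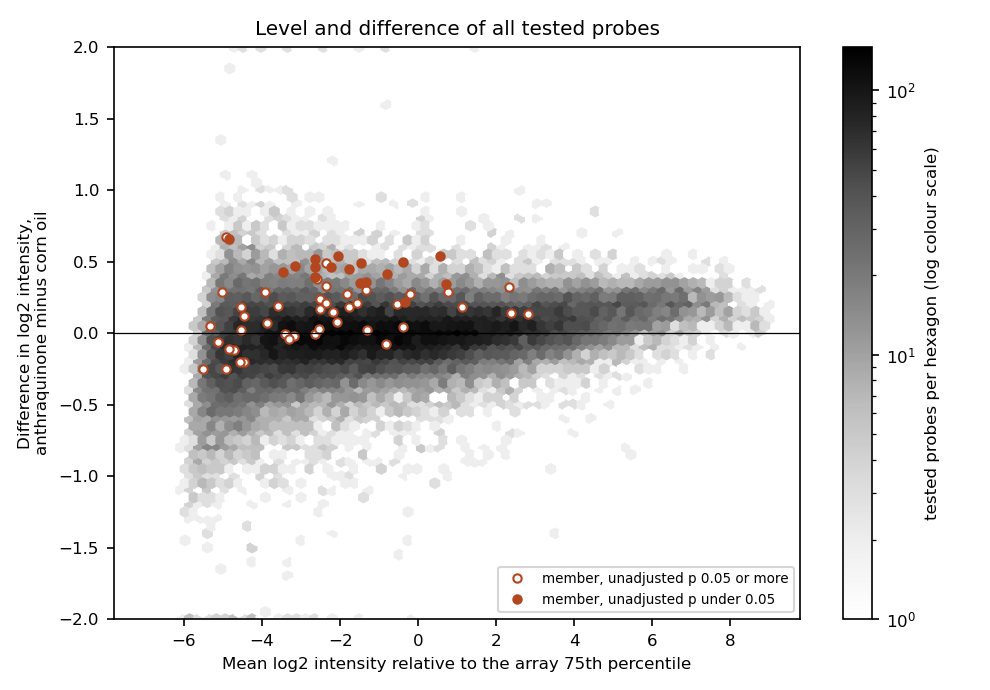
Difference in log2 intensity (anthraquinone minus corn oil, y axis) against the mean level over 6 arrays (x axis, log2 relative to the array's 75th percentile) for all 41310 tested probes as grey hexagons, with the 60 mitotic probes as circles, filled at an unadjusted p under 0.05. Values beyond 2 either way are drawn at the edge; most filled circles lie at levels from -4 to 1, above the densest band of probes.

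Other genes of the cell cycle were counted in the same way, and 0 of their probes had a limma adjusted p under 0.05. Of 80 tested probes of 50 further mitotic genes, limma gave 9 at higher and 3 at lower levels at an unadjusted p under 0.05 (11.2% and 3.75%, against 9.22% and 8.15% of all probes), with a median of 0.05. Spag5 (astrin, 0.42 ± 0.11), Cit (citron kinase, 0.46 ± 0.13) and Parpbp (0.36 ± 0.11) had the smallest p on the positive side. Dsn1 of the kinetochore (-0.61 ± 0.20) and Cenpl (-0.36 ± 0.13) stood on the negative side, and the checkpoint gene Mad2l1 gave -0.22 ± 0.14 (SE). Lmnb1, which encodes a nuclear lamin and is the third of the lower probes, was tested only through the corn oil arrays. It was dim there, though higher than in anthraquinone. It was well above background on no anthraquinone array (-5.20, -5.85 and -5.35) and on the 3 corn oil arrays (-5.03, -4.93 and -5.09).

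Subunits and partners of the anaphase-promoting complex outside the list had a median of 0.02 over 24 probes. At an unadjusted p under 0.05, 2 were at higher levels (8.33%, against 9.22% of all probes) and 1 at lower (4.17%, against 8.15%), shares no larger than those over all probes. These were Anapc13 (0.22 ± 0.07), Anapc1 (0.28 ± 0.11) and Cdc23 (-0.21 ± 0.08, SE). Cohesin genes had a median of -0.03 over 28 probes, with 0 at higher and 2 at lower levels (7.14%; Stag1, -0.33 ± 0.10; Smc3, -0.23 ± 0.10, SE). E2F and MuvB genes had a median of 0.07 over 18 probes, with 2 at higher (11.1%) and 1 at lower levels (5.56%). E2f3 gave 0.32 ± 0.07 and Tfdp1, the dimer partner of E2F proteins, -0.22 ± 0.08, while 3 probes of E2f1, an activator of S phase genes, gave 0.28, 0.20 and 0.04. G1 and S phase cyclins and CDKs outside the list had a median of 0.03 over 20 probes, with 1 at higher and 1 at lower levels (5.0% each). The growth regulator Myc, which was placed in that list, gave 1.07 ± 0.27 (SE; limma adjusted p = 0.191), Cdk2 gave -0.27 ± 0.09, and Cdk4 gave 0.03 and 0.02.

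Inhibitors of CDKs and pocket proteins had 3 probes at higher and 5 at lower levels among 17 tested at an unadjusted p under 0.05 (17.6% and 29.4%, against 9.22% and 8.15% of all probes), with a median of -0.02. The 17 probes belong to 8 genes, and 1 of the 3 higher probes (Cdkn1a A_44_P515275) was tested only through the anthraquinone arrays, where it was higher. Cdkn1a, which encodes the CDK inhibitor p21, had levels of 1.75, 2.82 and 2.88 in anthraquinone against 0.98, 1.51 and 0.90 in corn oil on A_44_P914438 (1.35 ± 0.34, SE; limma adjusted p = 0.187). The dimmer A_44_P515275, above background on the 3 anthraquinone arrays and on 1 corn oil array, had -4.59, -3.44 and -3.46 in anthraquinone against -5.51, -5.09 and -6.43 in corn oil. Its corn oil level was not measured on the other two arrays, so no difference is given for it. Its brightest probe, A_64_P123895, had 4.82, 4.79 and 4.77 in anthraquinone and 4.53, 4.79 and 4.73 in corn oil (0.11 ± 0.09, SE). The first and the last of these probes, above background on all 6 arrays, disagreed in size. On A_44_P914438 and A_44_P515275 anthraquinone replicate 1, the array with the highest median of the mitotic probes, was the lowest of the anthraquinone arrays. On A_64_P123895 that replicate was instead the highest of the 6 arrays, by little. Any link of Cdkn1a levels to those of the mitotic probes was not tested. Of the 5 lower probes, the 3 with the smallest p were all of Cdkn1c, which encodes the CDK inhibitor p57 and is a podocyte gene in adult kidney. These 3 were lower in anthraquinone by like amounts, at -0.46, -0.47 and -0.48 with adjusted p from 0.174 to 0.182 by limma. Cdkn1b (p27) gave 0.20 ± 0.08, and the pocket protein gene Rbl2 gave -0.10 and -0.05.

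Markers of other cells were set beside the list, as summed intensities relative to the 75th percentile and as counts of tested probes. Of 6 erythroid markers 5 had a probe, and they summed to 3.96 to 7.83 in anthraquinone and 2.95 to 3.96 in corn oil, while Gata1 was above background on no array. Of 7 tested erythroid probes 5 were positive (median 0.46). At an unadjusted p under 0.05, limma gave 1 at a higher level (14.3%, against 9.22% of all probes). In 2 the groups did not overlap, both higher (28.6%, against 14.5% of all probes). The called one was Alas2, the haem synthesis enzyme of red cell precursors, with levels of 1.94, 1.33 and 1.20 in anthraquinone against 0.50, 0.56 and 0.83 in corn oil (0.86 ± 0.21, SE; limma adjusted p = 0.186). The probes of Ahsp gave 0.63 ± 0.36 and 0.69 ± 0.39 (SE) with overlap. The probes of Epor, the erythropoietin receptor, gave 0.46 and -0.21, and those of Klf1, an erythroid transcription factor, gave 0.20 and -0.21. The highest Alas2 level was on anthraquinone replicate 1, as for the median of the mitotic probes. Among the corn oil arrays Alas2 was highest on replicate 3, where the median of the mitotic probes was lowest. The median deviation of the 7 erythroid probes was 0.27, 0.27 and 0.08 in anthraquinone and -0.24, -0.24 and 0.02 in corn oil.

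The 9 macrophage markers summed to 132 to 148 in anthraquinone and 142 to 162 in corn oil, a sum to which the bright lysozyme gene Lyz2 (-0.28 and -0.32, with overlap) contributes much. By count, 9 of 14 macrophage probes were positive with a median of 0.14. The groups did not overlap, with anthraquinone higher, in 4 (28.6%, against 14.5% of all probes). These were C1qa 0.39, C1qb 0.34 and 0.31, and C1qc 0.32, subunits of complement C1q. In 1 probe anthraquinone was lower without overlap (7.14%, against 10.7%). At an unadjusted p under 0.05, limma gave 1 higher and 1 lower (7.14% each, against 9.22% and 8.15% of all probes). The 7 T cell markers summed to 1.63 to 2.17 in anthraquinone and 1.5 to 1.9 in corn oil (median difference 0.02). Of 5 B and plasma cell markers 2 had a probe, and they summed to 0.0352 to 0.1 in anthraquinone and 0.0891 to 0.139 in corn oil. Neutrophil markers summed to 0.578 to 0.746 in anthraquinone and 0.691 to 0.875 in corn oil, with Elane above background on no array.

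Markers of injured tubule summed to 47.2 to 59.1 in anthraquinone and 63.6 to 74.8 in corn oil, with Krt20 above background on no array. The probes of Cd24, which contributes much of that sum, gave -0.39 and -0.42 without overlap, while the median of the 7 tested probes was -0.06 and 3 were positive. Havcr1, which encodes the injury marker KIM-1, had levels of -4.65, -4.15 and -1.48 in anthraquinone against -4.78, -4.80 and -4.43 in corn oil (1.24 ± 0.80, SE; limma adjusted p = 0.464), so it stood far higher on anthraquinone replicate 3 alone. Markers of collecting duct principal cells had a median of -0.46 over 7 probes. At an unadjusted p under 0.05, limma gave 4 at lower levels (57.1%, against 8.15% of all probes). It gave 1 at a higher level (14.3%, against 9.22%). Scnn1b, a subunit of the epithelial sodium channel, gave -0.72 ± 0.09 (SE; limma adjusted p = 0.102) and -0.73 on its 2 probes, while the water channel Aqp3 gave 0.46. Distal tubule markers had a median of -0.34 over 4 probes. Of these, 2 did not overlap, both lower in anthraquinone (50%, against 10.7% of all probes). The part of any of these cells in the levels of the mitotic probes was not tested.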

How the data were processed

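Scanner files of 6 one-colour Agilent arrays (rat renal cortex, 3 per group) were read. The deposited processed intensity of each spot had been corrected for background and spatial trend in the scanner's own software (Agilent Feature Extraction, version 10.7.1.1), per the file headers. It had not been scaled between arrays. The authors' deposited value table holds intensity per probe; between 90.7 and 97.0% of its values per array lay within 0.01 log2 of a constant multiple of the processed intensity, the inverse of the 75th percentile, with column medians of 0.109 to 0.114. It was linear and not centred by gene, and no header states its scale. The detection and outlier flags in the files are other values written by the same software, per the file headers.

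From the deposited intensity, log2 values were computed and the 75th percentile of the 61657 non-control probes (of 62976 spots) was subtracted array by array, without 2 to 13 outlier-flagged spots per array. Probes were named by accession through the RefSeq table of GRCr8 (27460 probes, 15284 symbols); the array headers name another assembly, so probes have no coordinates here. Groups and replicate numbers came from the sample titles, and the series' design text states biological replicates. Each probe was fitted for group alone with limma 3.58.1 under R 4.3.3 (lmFit, then eBayes), and p-values were adjusted by the Benjamini-Hochberg method at 0.05. Precision is limited by the 3 arrays per group. The script was tested on simulated data.

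The genes, their roles and the other lists were chosen with earlier results of these data known. Array values are given for the 12 mitotic probes with the smallest p in each direction, all probes of genes whose probes differ in sign with 1 at an unadjusted p under 0.05, and Ccnb1, Cdk1, Ccnd1, Foxm1, Plk1, Mybl2 and Birc5. From each other list, up to 3 probes per direction with an unadjusted p under 0.05 are named, and Cdkn1a, E2f1, Rbl2, Cdk4 and Mad2l1; Cdkn1a is given on every array by choice after its values were seen. Alternatives were other scalings, background correction, filters, probe summaries, variance models, blocks and left-out arrays. Normexp background correction, with an offset of 50, used the median signal of each spot, since the scanner columns used here hold no means.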

Additional observations from a re-analysis of the deposited data

How the results depend on the processing

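The median difference of the mitotic probes stayed positive in all 24 other settings, between 0.11 and 0.29 (0.21 as reported). These shifts from 0.21 were smaller than the within-group SD of the arrays' mitotic medians, which was 0.122. With 1 array left out the median difference was 0.16 to 0.29. For the counts that follow, the share of all probes at an unadjusted p under 0.05 is given only for the setting as reported. The count of mitotic probes at an unadjusted p under 0.05 (17) was 12 to 21 with 1 array left out, 11 over genes when probes of a gene were averaged, 10 with the row as a block and 9 with both outlying arrays left out together. Lower calls at that threshold appeared for Ccne1 (-0.28, row block), Kif2c A_42_P678378 (-0.47, without anthraquinone replicate 1) and Cdca8 (-0.49, without corn oil replicate 3, but -0.02 without corn oil replicate 2 and 0.00 with normexp). At an adjusted p under 0.05 the mitotic count of 0 became 4 of 71 with no filter on dim probes (Kif2c, Ccnb2, Prc1 and a Bub1 probe above background on no array). In that setting 8386 of all 61657 probes were called, a larger share than among the mitotic probes. The mitotic count became 1 at a threshold of 0.10, which was Kif2c, and stayed 0 in the other settings. Over all probes the count of 14 was 31 with normexp, 8386 without the filter (7637 higher, 749 lower), 2 with probes above background on at least 1 array, 9 with the brightest probe per gene, 90 with a variance trend, 1 without moderation, 2 with the slide as a block, 5 with the row as a block, 78 at 0.10 and 1 to 35 with 1 array left out. Probes left out by the filter had a median difference of 0.45, where negative control spots had median levels of -7.54 to -7.30 in anthraquinone and -8.08 to -7.89 in corn oil. The cause of these changes was not tested.

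Replicate numbers did not pair the animals: deviations of same-numbered arrays correlated at 0.04, -0.06 and -0.01. With the replicate number as a block, 1 probe of all passed, 0 mitotic probes passed (smallest limma adjusted p 0.192) and 14 had an unadjusted p under 0.05. The share of all probes at that unadjusted threshold is not given for this setting.

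Signs turned in probes near 0 or near background. Aurka A_44_P400158 gave 0.02 with median scaling, quantile normalization and the slide block, 0.05 with cyclic loess and 0.06 with normexp, and -0.12 to 0.08 with 1 array left out. Ccne1 gave 0.02, 0.03, 0.08 and 0.00 under those 4 corrections, 0.02 with array weights, 0.13 with the slide block and -0.09 to 0.13 with 1 array left out. Mybl2 A_44_P653701 gave 0.01, 0.01, 0.06 and 0.11 under the same 4, 0.03 with the slide block and -0.19 to 0.11 with 1 array left out. Mybl2 A_42_P827359 gave 0.02 with quantile normalization, 0.08 with normexp and 0.06 with the row block. Mybl2 A_64_P003124 gave -0.07 with cyclic loess, -0.15 with the row block, -0.12 with both arrays left out and -0.08 to 0.15 with 1 left out. Tpx2 gave 0.04 with cyclic loess, 0.03 with normexp and -0.12 to 0.00 with 1 array left out. Foxm1 A_42_P527141 gave -0.02 with the row block, -0.07 with both arrays left out and -0.10 to 0.11 with 1 left out, and A_64_P013068 gave 0.05 with normexp and 0.01 with the row block. Nek2 A_64_P015079 gave 0.14 with normexp and -0.28 to 0.01 with 1 array left out, and A_64_P139013 gave 0.14 with the row block and -0.51 to 0.28. Kif2c A_42_P678378 gave 0.17 with normexp and 0.01 with the row block. Prc1 A_44_P470884 gave 0.10 with normexp and -0.40 to 0.36 with 1 array left out. Ccnd1 A_44_P189299 gave -0.08 with the slide block and -0.08 to 0.30 with 1 array left out, and A_44_P411505 gave -0.03 and -0.03 to 0.23; A_64_P155393 gave 0.03 with the slide block, and the row block gave 0.56, 0.48 and 0.50 for these 3 probes.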
